A study of Mus musculus with 24 samples.

Results

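The enzymes described here dispose of reactive oxygen species in cells and in the fluid around them. They are 10 genes, chosen by name, of 19505 genes measured in mouse lung: the superoxide dismutases Sod1, Sod2 and Sod3, catalase (Cat), the glutathione peroxidases Gpx1 and Gpx3, both subunits of the enzyme that starts glutathione synthesis (Gclc and Gclm), heme oxygenase 1 (Hmox1) and the quinone reductase Nqo1. Each of the 10 genes had 1 probe set on the array.

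Superoxide dismutases turn superoxide into hydrogen peroxide, which catalase and the glutathione peroxidases then break down, the latter at the expense of reduced glutathione. Hmox1, Nqo1, Gclc and Gclm are classical targets of Nrf2 (Nfe2l2), a transcription factor that is held down by Keap1 and binds antioxidant response elements in DNA, while Bach1 represses several of the same genes. In the lung, Sod3 is the extracellular superoxide dismutase bound to the matrix of vessels and airways, and Hmox1 is prominent in macrophages, which break down heme from red cells.

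Each array carried RNA of a whole lung taken from a mouse at the age of 6 months. Wild-type mice and mice with Marfan syndrome, an inherited connective tissue disorder caused by mutations of fibrillin, received either vehicle or sildenafil, which blocks the phosphodiesterase that degrades cyclic GMP, in their drinking water from 6 weeks of age. The arrays with values were 6 from wild-type mice on vehicle, 4 from wild-type mice on sildenafil, 5 from Marfan mice on vehicle and 5 from Marfan mice on sildenafil. The labels give no mutant allele, strain, sex or dose. They do not state, beyond a planned 6 samples per group, that each array was a separate animal, so the p-values reflect only how these samples varied. The array numbers run on over the groups, so an order of processing and the group cannot be told apart.

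Before normalization the wild-type vehicle arrays were the dimmest group, with a median per array of 5.81 ± 0.20 (SD, n = 6) log2 units against 6.21 ± 0.13 (n = 4) in wild-type sildenafil, 6.19 ± 0.13 (n = 5) in Marfan vehicle and 6.22 ± 0.27 (n = 5) in Marfan sildenafil lungs. All levels below are log2 intensities after quantile normalization over the 20 arrays, and levels of different genes are not compared. The mean of 10 lung markers lay between 11.25 and 11.62 on all arrays, and none of those 10 was near the background probes. Array 9, of the Marfan sildenafil group, stood apart: the mean of 10 markers of alternatively activated and lipid-laden macrophages was 11.26 there and between 7.56 and 8.84 on the other 19 arrays. The mean of 9 resident alveolar macrophage markers was 9.70 there against 7.85 to 8.89, that of 12 endothelial markers 8.87 against 9.75 to 10.20, that of 7 alveolar type 1 markers 9.62 against 10.17 to 10.53, and that of 8 cardiac muscle markers 5.52 against 7.79 to 8.68. Not every marker followed its list on array 9. Siglecf (7.56) and Krt79 (7.54) lay within the range of the other arrays, while the other resident markers were highest there. Cd36 (11.23) of the alternatively activated list and Car4 (9.93) of the endothelial list also lay within that range. Pdpn (9.90), an alveolar type 1 marker, was highest there. Y-linked genes were low on 6 of the 20 arrays, spread over all 4 groups.

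The sequences just upstream of the genes were examined first, because 4 of the 10 enzymes are Nrf2 targets and their levels could be set beside the element that Nrf2 binds. The RefSeq promoter table (GRCm38.p6) held 7 of the 10 genes and lacked Sod3, Hmox1 and Gclc. Of the 4 targets only Gclm and Nqo1 could therefore be searched. Each window of 250 bases before the transcription start was searched on both strands for the core of the antioxidant response element, TGACNNNGC, which 10.2% of 32851 promoters in the table contain. The core was found in 2 of the 7 windows, those of Sod1 and Gclm. They are shown with that of Nqo1, the enzyme that varied most between arrays, whose window held no match. Bases farther upstream were not searched, so a window without a match does not mean that the gene lacks the element. Letters are 5′ to 3′ on the strand of the gene, and capitals mark the match.
Sod1, chr16:90220512-90220761, plus strand: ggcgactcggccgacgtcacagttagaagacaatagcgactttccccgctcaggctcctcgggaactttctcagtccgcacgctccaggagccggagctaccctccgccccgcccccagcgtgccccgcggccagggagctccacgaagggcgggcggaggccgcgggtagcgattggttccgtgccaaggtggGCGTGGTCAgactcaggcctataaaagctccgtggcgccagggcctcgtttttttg
Gclm, chr3:122245307-122245556, plus strand: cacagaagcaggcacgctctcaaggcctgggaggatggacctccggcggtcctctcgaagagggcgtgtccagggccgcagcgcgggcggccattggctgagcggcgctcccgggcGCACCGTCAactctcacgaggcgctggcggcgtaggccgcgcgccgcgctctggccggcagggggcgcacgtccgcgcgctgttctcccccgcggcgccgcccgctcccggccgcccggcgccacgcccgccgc
Nqo1, chr8:107403206-107403455, minus strand: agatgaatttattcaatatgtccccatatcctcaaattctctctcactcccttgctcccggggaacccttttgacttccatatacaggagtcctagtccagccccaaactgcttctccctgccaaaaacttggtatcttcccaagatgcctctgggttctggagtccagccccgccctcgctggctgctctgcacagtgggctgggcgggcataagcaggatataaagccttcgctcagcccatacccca
In both Sod1 and Gclm the core reads on the opposite strand, as TGACCACGC with its farthest base 56 bases before the start in Sod1 and as TGACGGTGC 134 bases before it in Gclm. In Sod1 these letters overlap 1 match to GCGTG, the core bound by the aryl hydrocarbon receptor, which occurs in 28.2% of the promoters and in 4 of the 7 windows (Sod1, Sod2, Gpx1 and Gclm). A match describes letters only. Over the 19 arrays other than array 9, Sod1 and Gclm correlated with r = 0.17, and Nqo1 and Gclm with r = 0.57. Whether the core bears on these correlations was not tested.

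None of the 10 genes passed an adjusted p of 0.05 (limma, Benjamini-Hochberg over all 19505 genes) in any of 7 comparisons, where 0% of all genes passed in each. The smallest adjusted p of a member was 0.16, that of Sod3 for sildenafil averaged over both genotypes. At an unadjusted p under 0.05 the count of members was 0 for Marfan against wild-type on vehicle (6.26% of all genes), 2 for sildenafil in Marfan mice (6.71%), 1 for sildenafil in wild-type mice (9.1%), 1 for Marfan against wild-type on sildenafil (3.89%) and 0 for the difference between both sildenafil effects (4.47%). For genotype averaged over treatments it was 2 (5.35%) and for sildenafil averaged over genotypes 2 (10.9%). The median difference over the 10 members was -0.0041 log2 units for Marfan against wild-type on vehicle, against -0.0048 over all genes. It was 0.043 for sildenafil in Marfan mice (all genes -0.0067), 0.072 for sildenafil in wild-type mice (all genes -0.0018) and -0.098 for Marfan against wild-type on sildenafil (all genes -0.0049).

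**Figure D1:**
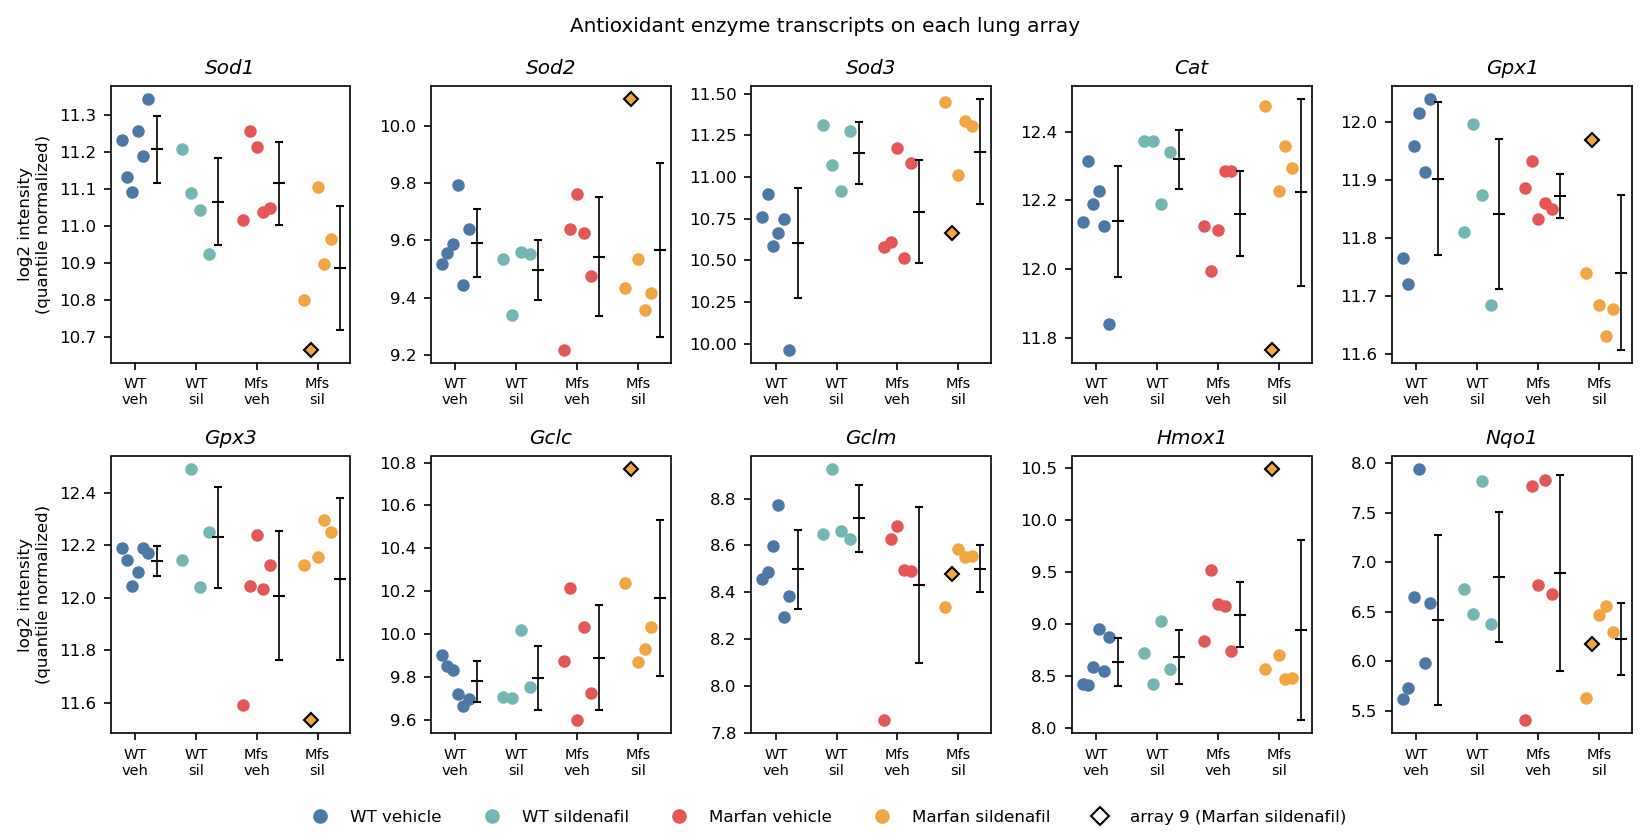
Each point is the log2 intensity (quantile normalized) of 1 gene on 1 lung array, for wild-type (WT) and Marfan (Mfs) mice on vehicle (veh) or sildenafil (sil), and bars give the mean ± SD of 6, 4, 5 and 5 arrays. The y axes differ between genes and do not start at 0. The sildenafil arrays of Sod3 lie mostly above and those of Sod1 mostly below the vehicle arrays, array 9 (diamond) is the highest for Sod2, Gclc and Hmox1, and Nqo1 spreads widely within groups.

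Sod3, the extracellular superoxide dismutase, had the smallest p of the members for sildenafil in wild-type mice and for sildenafil averaged over genotypes. In wild-type lungs on vehicle its log2 level was 9.96 on the lowest array, 10.71 at the median and 10.90 on the highest of 6. On sildenafil the 4 wild-type arrays read 10.91, 11.07, 11.28 and 11.31, so that all lay above every vehicle array, at 10.91 against 10.90 for the closest pair. The difference was 0.54 ± 0.17 log2 units (SE), a 1.45-fold level, with an adjusted p of 0.379 (limma). Among all genes, 1.42% had wild-type sildenafil arrays entirely above the vehicle arrays.

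In Marfan lungs Sod3 read 10.51, 10.58, 10.61, 11.08 and 11.17 on vehicle and 10.66, 11.01, 11.30, 11.34 and 11.45 on sildenafil. The groups overlapped, and the lowest sildenafil value belonged to array 9. The difference was 0.36 ± 0.17 (adjusted p = 0.726, limma), and 0.48 ± 0.15 without array 9 (adjusted p = 0.587). The sildenafil effects in the 2 genotypes differed by -0.18, with a 95% interval from -0.67 to 0.31, and by -0.057 without array 9.

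Averaged over both genotypes, Sod3 was 0.45 ± 0.12 log2 units higher on sildenafil, a 1.37-fold level that did not pass (adjusted p = 0.16, limma). Without array 9 it was 0.51 ± 0.11 with an adjusted p of 0.0343, and 0.379% of all genes then passed. With arrays weighted by their quality it was 0.48 ± 0.10 with an adjusted p of 0.0284, where 0.349% of genes passed. Array 9 had the lowest weight, 0.27, against 0.60 for the next lowest (array 22), so this setting also discounts array 9. Marfan and wild-type lungs on vehicle differed by 0.19 (95% interval -0.14 to 0.52), and on sildenafil by 0.0096 (-0.35 to 0.37), or 0.13 without array 9.

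Sod3 was higher on brighter arrays. Over the 19 arrays other than array 9 the correlation with the deposited array median was r = 0.79, and r = 0.70 with the group means removed; 6.97% of all genes had an r above 0.5 and 7.21% an r below -0.5. The dimmest array, wild-type vehicle array 18 at a median of 5.45, also had the lowest Sod3. With array brightness as a covariate the sildenafil difference was 0.071 ± 0.15 in wild-type mice, 0.33 ± 0.12 in Marfan mice and 0.20 ± 0.10 averaged over both, the last with an adjusted p of 0.614 (limma). On vehicle, Marfan minus wild-type turned from 0.19 to -0.25 with that covariate. The sildenafil value in Marfan mice moved little, and that in wild-type mice nearly vanished. Array medians were at most 6.00 in the wild-type vehicle group and at least 6.04 in the wild-type sildenafil group. Treatment and brightness therefore cannot be told apart in wild-type mice, and the part of brightness was not tested. The Marfan vehicle medians lay between 6.22 and 6.27 except on array 20, at 5.96. Genotype and brightness on vehicle are thus hard to tell apart for any gene. Without array 18 the sildenafil difference of Sod3 in wild-type mice was 0.41 ± 0.15. On the 14 arrays with high Y-linked levels alone it was 0.73 ± 0.20 in wild-type and 0.15 ± 0.20 in Marfan mice. Those arrays include 9 and 18, the lowest for Sod3 in the Marfan sildenafil and wild-type vehicle groups. Left out were wild-type arrays 13 and 14 (vehicle) and 5 (sildenafil), and Marfan arrays 20 and 21 (vehicle) and 8 (sildenafil).

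**Figure D2:**
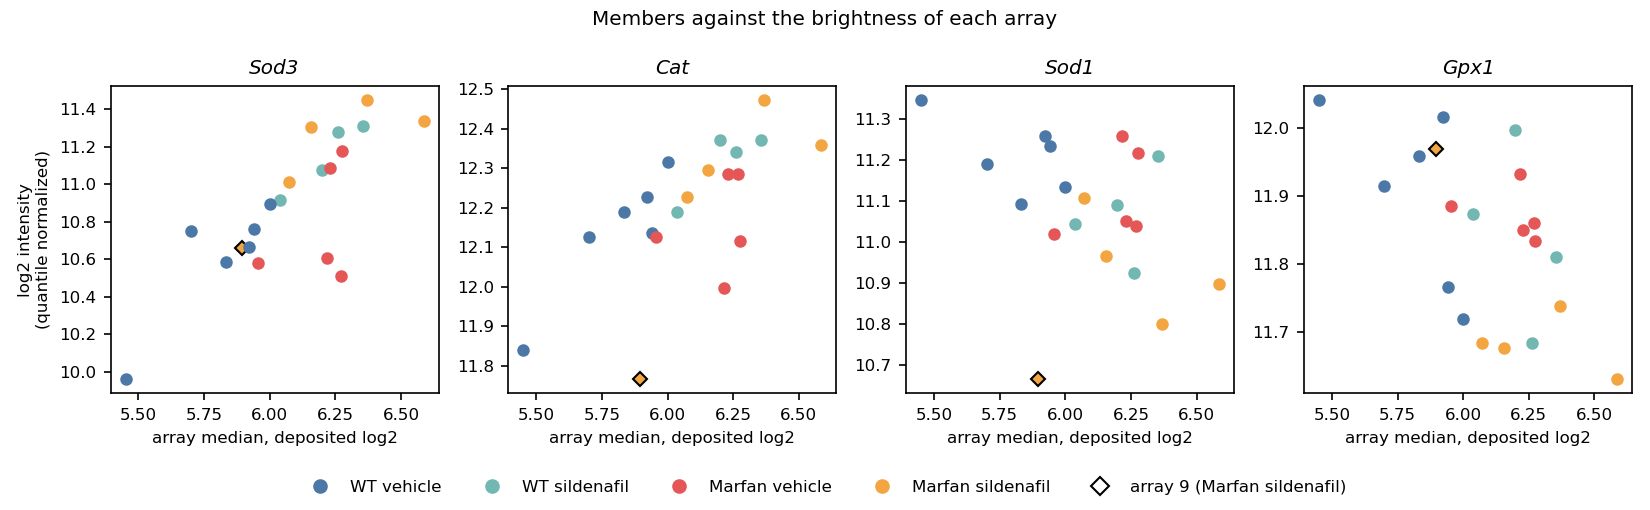
The log2 intensity of Sod3, Cat, Sod1 and Gpx1 after quantile normalization (y axis, not from 0) is plotted against the median log2 intensity of the same array as deposited (x axis), 1 point per array coloured by group. Sod3 and Cat are higher and Sod1 and Gpx1 lower on brighter arrays, with r = 0.79, 0.71, -0.59 and -0.59 over the 19 arrays without array 9 (diamond).

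Sod1, the cytosolic copper and zinc enzyme, lay the other way. In Marfan lungs it read 11.02, 11.04, 11.05, 11.22 and 11.26 on vehicle and 10.66, 10.80, 10.90, 10.97 and 11.11 on sildenafil. Only 1 sildenafil array, at 11.11, lay within the range of the vehicle arrays, and the lowest was array 9. The difference was -0.23 ± 0.09 (adjusted p = 0.717, limma), a level 0.853 times that on vehicle. In wild-type lungs the vehicle arrays ran from 11.09 to 11.35 with a median of 11.21 and the 4 sildenafil arrays read 10.92, 11.04, 11.09 and 11.21, a difference of -0.14 ± 0.09. Averaged over genotypes the difference was -0.19 ± 0.06 (adjusted p = 0.25, limma). Averaged over treatments, Marfan minus wild-type was -0.14 ± 0.06 (adjusted p = 0.918, limma).

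Sod2, the manganese enzyme of mitochondria, differed by -0.035 (95% interval -0.21 to 0.14) with sildenafil averaged over genotypes, and by -0.10 (-0.24 to 0.039) without array 9. In Marfan mice alone it was 0.023 with and -0.11 without array 9. Its group means were 9.59 ± 0.12 (SD, n = 6) in wild-type vehicle, 9.50 ± 0.11 (n = 4) in wild-type sildenafil, 9.54 ± 0.21 (n = 5) in Marfan vehicle and 9.57 ± 0.30 (n = 5) in Marfan sildenafil lungs. The last group held the highest array of all, array 9 at 10.09, and the other 4 arrays lay between 9.36 and 9.53. Sod1 and Sod2 correlated with r = 0.56 over the 19 other arrays but with r = -0.054 over all 20, and Sod1 and Sod3 with r = -0.63 and -0.42.

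Catalase, the peroxisomal enzyme that splits hydrogen peroxide, had means of 12.14 ± 0.16 (SD, n = 6), 12.32 ± 0.09 (n = 4), 12.16 ± 0.12 (n = 5) and 12.22 ± 0.27 (n = 5) in the same order. The wild-type sildenafil arrays read 12.19, 12.34, 12.37 and 12.37 and overlapped the vehicle arrays, which reached 12.32. The difference of 0.18 ± 0.11 did not pass (adjusted p = 0.657, limma), and it was -0.10 with array brightness as a covariate. Cat followed Sod3 over the 19 arrays with r = 0.80 (Spearman 0.70), and r = 0.61 without arrays 18 and 8, the farthest from the median of Sod3; both genes share the relation to array brightness.

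Gpx1, the main cytosolic glutathione peroxidase, varied least of the members. In Marfan lungs its vehicle arrays read 11.83, 11.85, 11.86, 11.89 and 11.93, and its sildenafil arrays 11.63, 11.68, 11.68, 11.74 and 11.97. Array 9 was the 11.97, above all vehicle arrays, while the other 4 lay below all of them. The difference was -0.13 ± 0.09 (adjusted p = 0.807, limma), and -0.19 ± 0.08 without array 9 (adjusted p = 0.677), where the groups did not overlap; 1.1% of all genes lay entirely lower without array 9. In wild-type lungs the difference was -0.062 ± 0.087. Gpx1 ran against Sod3 (r = -0.71) and against the mean of 9 fibroblast and smooth muscle markers (r = -0.77 over 19 arrays), whose part in the result was not tested.

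Gpx3, the secreted glutathione peroxidase, lay between 12.05 and 12.19 on all 6 wild-type vehicle arrays. The wild-type sildenafil arrays spread from 12.04 to 12.49. Marfan vehicle arrays read 11.59, 12.03, 12.05, 12.13 and 12.24, and Marfan sildenafil arrays 11.53, 12.13, 12.15, 12.25 and 12.30. A single low array in each Marfan group, array 20 and array 9, set the lower means, and the 95% interval included 0 in each of the 4 pairwise comparisons, among them -0.13 (-0.38 to 0.12) for Marfan on vehicle and 0.064 (-0.20 to 0.33) for sildenafil in Marfan mice. The first was -0.029 without array 20 and -0.36 with brightness as a covariate, and the second was 0.20 (-0.010 to 0.41) without array 9.

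Glutathione is made by glutamate-cysteine ligase, whose catalytic subunit is Gclc and whose modifier subunit is Gclm. Gclc in Marfan lungs read 9.60, 9.73, 9.88, 10.03 and 10.21 on vehicle and 9.87, 9.93, 10.03, 10.24 and 10.77 on sildenafil, the 10.77 being array 9. Wild-type arrays ran from 9.67 to 9.90 on vehicle and read 9.70, 9.71, 9.75 and 10.02 on sildenafil. Marfan exceeded wild-type lungs on sildenafil by 0.37 ± 0.14 (1.30-fold), with an adjusted p of 1 (limma). Without array 9 that difference was 0.22 ± 0.11 (adjusted p = 1). The sildenafil difference in Marfan mice was 0.28 ± 0.14 with and 0.13 ± 0.11 (adjusted p = 0.871) without array 9.

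Gclm did not follow its partner: the subunits correlated with r = -0.17 over 19 arrays. Wild-type sildenafil arrays read 8.63, 8.65, 8.66 and 8.93, and Marfan sildenafil arrays 8.34, 8.48, 8.55, 8.56 and 8.58. All 5 Marfan arrays lay below all 4 wild-type arrays, as did those of 0.749% of all genes, by a mean of -0.21 ± 0.13 (adjusted p = 1, limma). Vehicle arrays ran from 8.30 to 8.77 in wild-type and from 7.85 to 8.68 in Marfan lungs, the lowest being array 20. Gclm and Gpx3 correlated with r = 0.72 over 19 arrays, but the Spearman correlation was 0.15, and r was -0.13 without arrays 20 and 4, so the relation rested on those 2 arrays.

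Heme oxygenase 1 was the member in which array 9 mattered most. Wild-type vehicle arrays ran from 8.41 to 8.95 with a median of 8.56, and wild-type sildenafil arrays read 8.42, 8.57, 8.72 and 9.03. Marfan vehicle arrays read 8.73, 8.84, 9.17, 9.19 and 9.51. Marfan sildenafil arrays read 8.47, 8.48, 8.56 and 8.70 apart from array 9, which read 10.49. On vehicle, Marfan minus wild-type was 0.46 ± 0.25 (adjusted p = 0.799, limma), with the groups overlapping at 8.73 to 8.95. Leaving out array 9, which is in neither of these groups, left the difference at 0.46 but narrowed its error to 0.13 (adjusted p = 0.427). With array brightness as a covariate it was 0.93 ± 0.29 (adjusted p = 0.623, limma). That fit includes array 9, which had the highest Hmox1 and, at a median of 5.90, the lowest brightness of its group. Over the other 19 arrays, with the group means removed, Hmox1 correlated with brightness at only r = -0.21.

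Sildenafil minus vehicle in Marfan lungs was -0.15 ± 0.26 for Hmox1 with array 9 and -0.53 ± 0.14 without it (0.691 times the vehicle level, adjusted p = 0.568, limma). Without array 9 the 4 sildenafil arrays lay below all 5 vehicle arrays, 8.70 against 8.73 at the closest, as in 1.1% of all genes. The difference between the sildenafil effects of the genotypes was -0.20 ± 0.37 with and -0.59 ± 0.20 without array 9, where the adjusted p was 0.995. On the 14 arrays with high Y-linked levels alone, array 9 among them, the Marfan sildenafil difference was 0.0048 ± 0.33. Marfan minus wild-type on sildenafil was 0.26 ± 0.28 with and -0.13 ± 0.15 without array 9.

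Hmox1 followed the mean of the resident alveolar macrophage markers, with r = 0.90 over 20 arrays and 0.70 over 19, and the mean of the markers of alternatively activated and lipid-laden macrophages with r = 0.83 and 0.42. Of the resident markers, Siglecf and Krt79 did not stand out on array 9. In the Marfan vehicle arrays the mean of the 9 resident markers ran from 8.08 to 8.89, against 7.96 to 8.39 in wild-type vehicle arrays. The median over the arrays was 8.25 in both groups. More macrophages and more RNA per macrophage cannot be told apart in whole lung, and the part of the macrophages in the Hmox1 values was not tested. Gclc had r = 0.85 and 0.61 with the resident markers, and Sod2 r = 0.77 and 0.49.

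Array 9 itself had 1.79 log2 units more Hmox1 than the median of the other 19 arrays, 0.92 more Gclc and 0.56 more Sod2, the highest value of each. Only 1.2% of all genes lay farther above on that array than Hmox1, and 4.16% farther than Gclc. It also had the lowest values of Gpx3 (-0.61), Cat (-0.46) and Sod1 (-0.43). Gpx1 (0.12), Gclm (-0.075), Sod3 (-0.25) and Nqo1 (-0.39) lay within the range of the other arrays, so that the 4 Nrf2 targets among the members did not move together there.

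**Figure D3:**
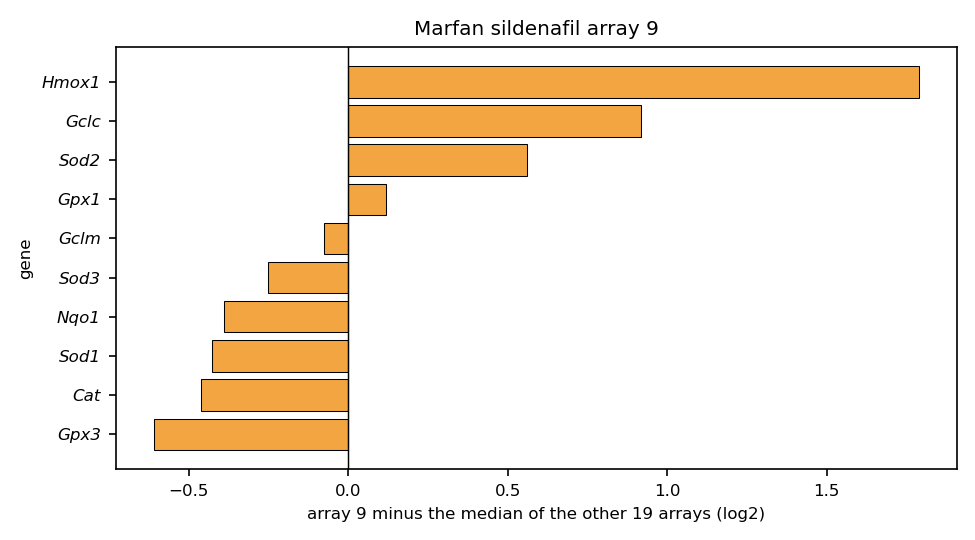
Bars give, for each of the 10 genes, the log2 level on Marfan sildenafil array 9 minus the median of the other 19 arrays. Hmox1 (1.79), Gclc (0.92) and Sod2 (0.56) extend farthest above 0, and Gpx3 (-0.61), Cat (-0.46) and Sod1 (-0.43) farthest below.

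**Figure D4:**
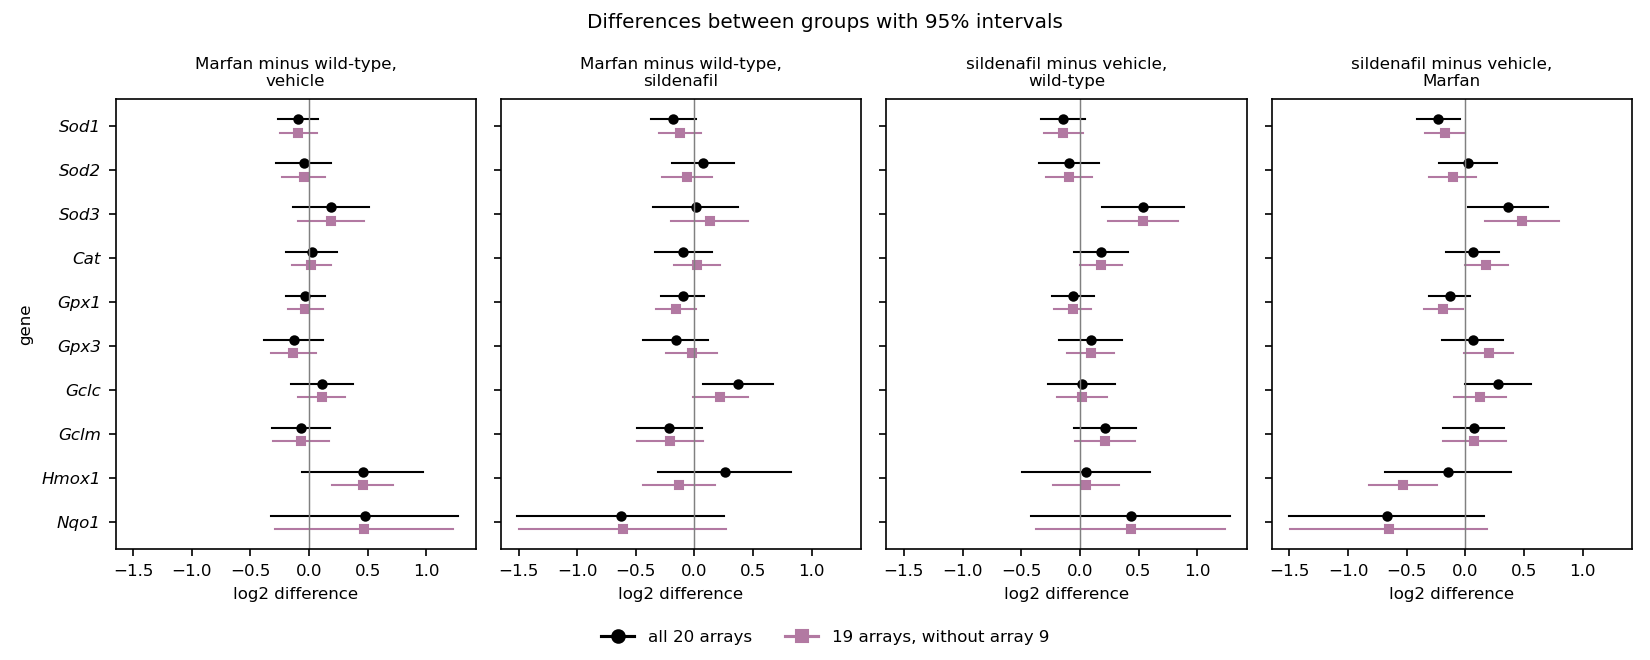
Points are log2 differences between groups for the 10 genes (y axis) in the 4 pairwise comparisons, and lines are 95% intervals of the limma fit, in black with all 20 arrays and in purple without array 9. Most intervals include 0; Sod3 for sildenafil lies above 0 in both genotypes, Hmox1 for sildenafil in Marfan mice moves from -0.15 to -0.53 without array 9, and the intervals of Nqo1 are the widest.

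Nqo1, which reduces quinones by transfer of a pair of electrons, varied more than any other member. Wild-type vehicle arrays read 5.62, 5.73, 5.99, 6.59, 6.65 and 7.94, and wild-type sildenafil arrays 6.38, 6.48, 6.73 and 7.82. Marfan vehicle arrays read 5.40, 6.68, 6.77, 7.77 and 7.83, and Marfan sildenafil arrays 5.63, 6.17, 6.29, 6.47 and 6.56. The 4 highest arrays, 16, 5, 21 and 23, came from 3 groups and stood apart at 7.77 or more, while the other 16 did not exceed 6.77; no Marfan sildenafil array was among the 4. The whole range was 2.54 log2 units, or 5.80-fold. The SD within groups was 0.77, larger than that of 99.5% of genes, against 0.26 for the median gene.

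All 4 groups overlapped for Nqo1, and its intervals were the widest of the members. Sildenafil minus vehicle was -0.67 (95% interval -1.50 to 0.16) in Marfan and 0.43 (-0.42 to 1.28) in wild-type mice. The difference between these effects was -1.10 ± 0.58 (adjusted p = 0.984, limma). Marfan minus wild-type was 0.47 (-0.32 to 1.27) on vehicle and -0.63 (-1.51 to 0.25) on sildenafil. With each array left out in turn, the sildenafil difference ran from -1.04 (without array 20) to -0.44 (without array 23) in Marfan mice and from 0.11 (without array 5) to 0.74 (without array 16) in wild-type mice.

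The genes whose levels were most like Nqo1 across arrays were Cbr3, a carbonyl reductase, and the carboxylesterases Ces1f and Ces1g, both over 20 and over 19 arrays. Over 19 arrays r was 0.92 for Cbr3 (Spearman 0.87), 0.93 for Ces1f (0.87) and 0.91 for Ces1g (0.89). Because 4 arrays stood apart, the correlations were also taken over the other 15 arrays, where r was 0.80 for Cbr3, 0.77 for Ces1f and 0.74 for Ces1g. Arrays 5, 16, 21 and 23 were also the 4 highest for Cbr3, Ces1f and Ces1g. The gastrointestinal glutathione peroxidase Gpx2 had r = 0.84 over 19 and 0.65 over 15 arrays, the transferase Gsto1 0.84 and 0.60, the aldehyde oxidase Aox1 0.83 and 0.54, and metallothionein Mt2 0.80 and 0.57.

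Among the members, Hmox1 had r = 0.71 with Nqo1 over 19 arrays, 0.33 over all 20 and 0.34 over the 15, and Gclm 0.57, 0.57 and 0.69. Of 16 measured genes in a list of other Nrf2 targets, 13 had an r above 0.5 with Nqo1 over 19 arrays, where 2.79% of all genes did; over all 20 arrays 7 did (2.02% of all genes), and over the 15 arrays 5 did (4.22%). The counts over 19 arrays were 9 of 16 for other glutathione peroxidases and transferases, 7 of 14 for the thioredoxin and peroxiredoxin system, 6 of 15 for glutathione synthesis and recycling, 4 of 12 for heme, iron and copper handling, 3 of 11 for sources of superoxide and peroxide, and 0 of 10 for Nrf2 regulators. Over all 20 arrays they were 9, 2, 3, 2, 1 and 0 in that order. The lists share genes, so these counts are not separate. Gsta4 and Gstm1, Txnrd1 and Srxn1, and Slc7a11, Pgd and Me1 had an r above 0.5 over 19 arrays. They were counted among the Nrf2 targets and again in the transferase, thioredoxin and glutathione synthesis lists. For the other members that are Nrf2 targets, 10 of the 16 target genes passed that mark over 19 arrays with Hmox1, 4 with Gclm and 2 with Gclc, and over all 20 arrays 7, 3 and 7. These correlations carry no test. Cell marker means differed between the arrays, and the part of tissue composition in the correlations was not tested.

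**Figure D5:**
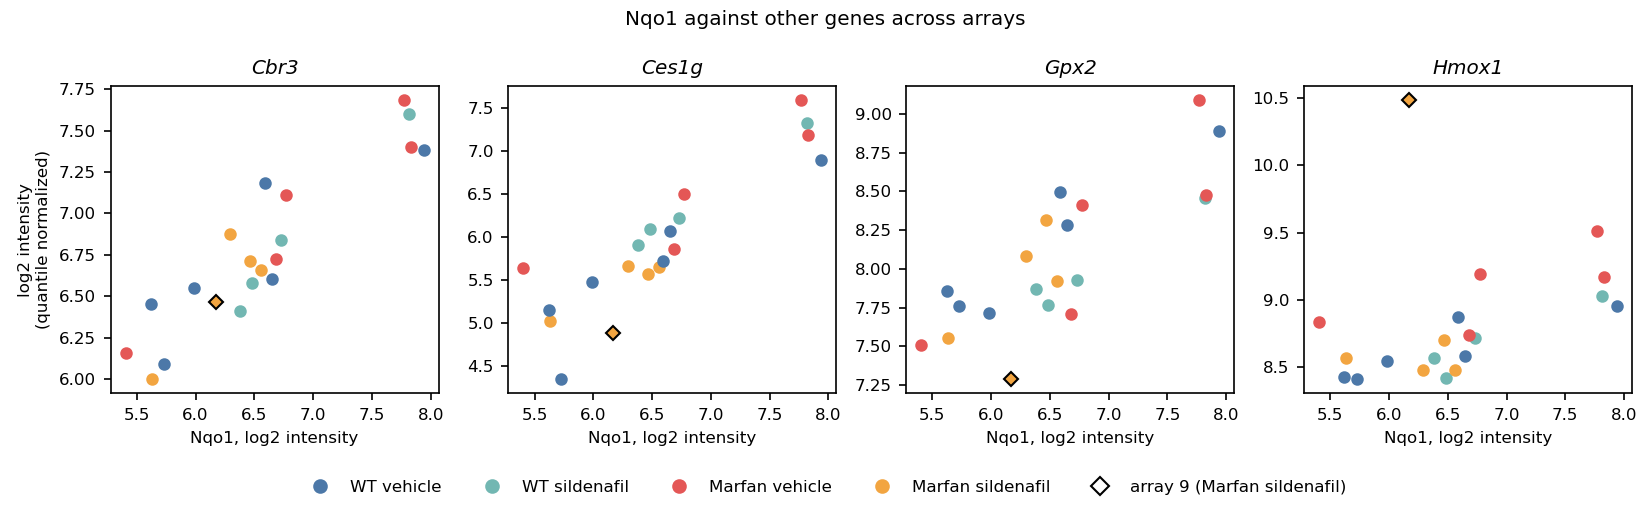
Each point is 1 array, with the log2 intensity of Nqo1 on the x axis and that of Cbr3, Ces1g, Gpx2 or Hmox1 on the y axis (quantile normalized, axes not from 0), coloured by group. The 4 arrays with Nqo1 at 7.77 or more are the highest for Cbr3 and Ces1g, and array 9 (diamond) lies off the trend for Hmox1 at 10.49.

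For the other members the most similar genes were Ttyh3 (r = 0.96), Midn and Cmklr1 (both 0.94) for Sod3 over 19 arrays; over 20 arrays Ets2 (0.93) took the place of Midn. Sod1 was most like H4c4 (0.94), Vamp8 (0.93) and Hint2 (0.92) over 19 arrays, and like Selenom, Clec2d and S100a16 (0.92, 0.91 and 0.90) over 20. Sod2 was most like Ufc1, Blvrb and Gmds (0.87, 0.86 and 0.85), and over 20 arrays like Tgif1, S100a1 and Fxyd3 (0.88, 0.88 and 0.87). Cat was most like Cldn18 and Arhgap17 (both 0.90) and Glp1r (0.89), with Glp1r, Tspan2 and Msrb3 (0.92, 0.90 and 0.89) over 20 arrays. The claudin Cldn18 is a tight junction protein of the alveolar epithelium.

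Gpx1 was most like Smpdl3a (0.87), Sec61g (0.86) and Trnau1ap (0.82) over 19 arrays, with Sec61g, Trnau1ap and Tmem256 (0.87, 0.81 and 0.81) over 20; Trnau1ap takes part in the incorporation of selenocysteine, the residue at the active site of Gpx1. Gpx3 was most like Phf1, Pex19 and Myl12a (each 0.79), and over 20 arrays like Myl12a, Phf1 and Tmem204 (0.87, 0.87 and 0.85). Hmox1 was most like Ces1g (0.82), Hexa (0.82) and Sla (0.81), and over 20 arrays like Hexa, Scpep1 and Sla (0.93, 0.92 and 0.91), of which Hexa and Scpep1 encode lysosomal enzymes. Gclc was most like Rbpj (0.82), H2-Q5 (0.80) and Clip4 (0.77), and over 20 arrays like Clip4, Ankrd55 and Slc26a4 (0.91, 0.90 and 0.90). Gclm was most like the transferase Gstm2 (0.84), Nipsnap2 (0.82) and Pef1 (0.82), with Nipsnap2, Pef1 and Cnp (0.82, 0.81 and 0.80) over 20 arrays. The 3 most similar genes differed with and without array 9 for each member except Nqo1.

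The other genes of these pathways were read from 7 lists, and 0 genes of any list passed in any comparison. Within each list the genes were read on the same arrays. Counts of genes above 0 are therefore not counts of independent observations, and they were not tested. Among the regulators, Nfe2l2 itself differed by -0.013 ± 0.093 between Marfan and wild-type mice on vehicle, by 0.14 ± 0.10 with sildenafil in Marfan and by 0.099 ± 0.099 in wild-type mice, and by 0.028 ± 0.10 between the genotypes on sildenafil. Keap1 differed by 0.20 ± 0.13, -0.12 ± 0.13, 0.077 ± 0.14 and -0.00044 ± 0.14 in the same order, and Bach1 by 0.10 ± 0.09, 0.024 ± 0.092, 0.097 ± 0.094 and 0.027 ± 0.098. The regulators with the smallest p were Sqstm1, an adaptor that sequesters Keap1 (0.24 ± 0.11, adjusted p = 0.79), and the small Maf gene Mafg (0.32 ± 0.18) for Marfan on vehicle. For sildenafil they were Maff (0.41 ± 0.24) in Marfan and Nfe2l1 (0.24 ± 0.14) in wild-type mice, and for Marfan on sildenafil Maff (0.35 ± 0.25) and Sqstm1 (0.14 ± 0.13). Without array 9, Maff was at 0.25 and 0.20 in these comparisons, Sqstm1 at 0.093 on sildenafil and Nfe2l2 at 0.090 for sildenafil in Marfan mice. With array brightness as a covariate Mafg was at 0.20 and Keap1 at 0.43 for Marfan on vehicle, and Nfe2l1 at 0.021, Nfe2l2 at 0.19 and Keap1 at 0.32 for sildenafil in wild-type mice.

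Of the 16 other Nrf2 targets, 14 were above 0 for Marfan against wild-type on vehicle, with a median of 0.20 log2 units against -0.0048 over all genes. An unadjusted p under 0.05 was reached by 1 of the 16, near the 6.26% of all genes that reached it. These 16 genes were read on the same arrays and are not independent observations, and the count of 14 was not tested. Without array 9, 13 of the 16 had an r above 0.5 with Nqo1, and with all arrays 7 did. Of the vehicle arrays with high Nqo1, arrays 21 and 23 were Marfan and array 16 was wild-type. The genes of smallest p were Abcc1, a transporter of glutathione conjugates, at 0.32 ± 0.10 (adjusted p = 0.785, limma), and Txnrd1, thioredoxin reductase, at 0.25 ± 0.13, or 0.42 with array brightness as a covariate. For sildenafil 5 of 16 were above 0 in Marfan mice (median -0.059) and 13 of 16 in wild-type mice (median 0.12). The genes of smallest p there were the transferase Gsta4 at -0.27 ± 0.13 and Cbr3 at -0.47 ± 0.27 in Marfan, and Gstm1 at 0.22 ± 0.11 and Gsta4 at -0.28 ± 0.13 in wild-type mice. For Marfan on sildenafil 10 of 16 were above 0, led by Akr1b8 at 0.38 ± 0.21 and the malic enzyme Me1 at 0.25 ± 0.17, which without array 9 were 0.19 and 0.021.

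Of the 16 other glutathione peroxidases and transferases, 1 was above 0 for sildenafil in Marfan mice, with a median of -0.16 against -0.0067 over all genes, and 2 in wild-type mice, with a median of -0.15. Gsta3 was at -0.46 ± 0.18 in Marfan mice (adjusted p = 0.722, limma) and at -0.26 without array 9. Gpx4, the peroxidase of membrane lipids, was at -0.22 ± 0.10 in Marfan and -0.22 ± 0.10 in wild-type mice, and at -0.057 in wild-type mice with array brightness as a covariate. The effects in the genotypes do not share arrays, but within each the 16 genes were read on the same arrays. They are not independent observations, and the counts were not tested. For Marfan on vehicle 5 of 16 were above 0, with Gstm1 at 0.18 ± 0.10 and Gpx8 at -0.14 ± 0.11, which were -0.043 and -0.29 with brightness as a covariate. On sildenafil 3 of 16 were above 0, with Gsta3 at -0.38 ± 0.19 and Gstm2 at -0.24 ± 0.15, which were -0.19 and -0.11 without array 9. Gstm1 for sildenafil in wild-type mice, at 0.22, was at -0.022 with brightness as a covariate.

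Of the 15 other genes of glutathione synthesis and recycling, 9 were above 0 for Marfan on vehicle, 9 and 7 for sildenafil in Marfan and wild-type mice, and 10 for Marfan on sildenafil. Chac2 and Ggct, which both act in the breakdown of glutathione, were at -0.36 ± 0.13 and -0.38 ± 0.15 for Marfan on vehicle, each with an adjusted p of 0.789 (limma). Ggct was also at -0.51 ± 0.16 for sildenafil in wild-type mice (adjusted p = 0.366, limma), a comparison that shares the wild-type vehicle arrays. These values of Ggct were -0.23 and -0.34 with brightness as a covariate. Slc3a2, the heavy chain of the cystine transporter, was at 0.17 ± 0.09 and 0.24 ± 0.09 for sildenafil in Marfan and wild-type mice, the glutaredoxin Glrx5 at -0.21 ± 0.14 in Marfan mice, and Chac2 at -0.22 ± 0.14 for Marfan on sildenafil.

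In the thioredoxin and peroxiredoxin system 5 of 14 genes were above 0 for Marfan on vehicle, 6 and 6 for sildenafil in Marfan and wild-type mice, and 7 for Marfan on sildenafil. The genes of smallest p were Txnrd1, given above, and Txnip at 0.14 ± 0.09 for Marfan on vehicle, Sesn2 at 0.42 ± 0.24 and Sesn1 at -0.23 ± 0.13 for sildenafil in Marfan mice, Txn1 at -0.15 ± 0.10 and Prdx4 at -0.20 ± 0.14 in wild-type mice, and Sesn1 at -0.23 ± 0.14 and Prdx3 at -0.16 ± 0.12 for Marfan on sildenafil. None had an unadjusted p under 0.05. Without array 9 the values of Sesn1 were -0.11 and -0.11. Adding brightness as a covariate put Txnip at 0.034, Txn1 at -0.067 and Prdx4 at 0.0041.

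Of 12 genes of heme, iron and copper handling, 5 were above 0 for Marfan on vehicle, 8 and 4 for sildenafil in Marfan and wild-type mice, and 8 for Marfan on sildenafil. The iron exporter Slc40a1 was at -0.22 ± 0.17 and the ferritin light chain Ftl1 at 0.099 ± 0.10 for Marfan on vehicle. Ceruloplasmin (Cp) was at 0.19 ± 0.14 and Hmox2, the constitutive heme oxygenase, at 0.14 ± 0.12 for sildenafil in Marfan mice, and Atp7a at 0.18 ± 0.17 and Blvrb at -0.19 ± 0.23 in wild-type mice. Slc40a1 was at 0.076 with array brightness as a covariate, and Hmox2 at 0.077 without array 9. For Marfan on sildenafil Ftl1 was at 0.18 ± 0.12 and Mt2 at 0.38 ± 0.28, which without array 9 were 0.077 and 0.12.

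Of 11 sources of superoxide and peroxide, 6 were above 0 for Marfan on vehicle, 7 and 8 for sildenafil in Marfan and wild-type mice, and 4 for Marfan on sildenafil. Xanthine dehydrogenase (Xdh) was at 0.30 ± 0.14 (adjusted p = 0.79, limma) and the NADPH oxidase Nox4 at -0.23 ± 0.17 for Marfan on vehicle. For sildenafil Duox1 was at 0.38 ± 0.23 and Xdh at -0.23 ± 0.15 in Marfan mice, and the phagocyte oxidase subunit Cybb at 0.18 ± 0.17 and Xdh at 0.15 ± 0.15 in wild-type mice. For Marfan on sildenafil Nox1 was at -0.47 ± 0.30 and Duox1 at 0.31 ± 0.24. Both genes lay near the background probes, whose median per array reached 2.95. Nox1 ran from 2.53 (array 18) to 4.46 (array 4), and Duox1 from 2.90 (array 10) to 4.51 (array 9). Without array 9 Duox1 was at 0.18 for sildenafil in Marfan mice and 0.12 for Marfan on sildenafil, and Xdh at -0.14 for sildenafil in Marfan mice. Brightness as a covariate put Xdh at 0.19 and Nox4 at -0.50 for Marfan on vehicle, and Cybb at 0.44 and Xdh at 0.040 for sildenafil in wild-type mice. These fits include array 9, which had the lowest Nox4 (7.60) and the highest Cybb (10.78) of all arrays.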

How the data were processed

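The authors deposited log2 intensities per probe set, made with Affymetrix Expression Console and RMA per the submitters' processing notes; the sources used here give no versions. Per the labels' protocols, RNA of integrity above 8.5 was used, 700 pg per sample. Groups were taken from the sample titles. Columns of 4 arrays titled as failing quality control held no values. Deposited medians differed between arrays, so the 22206 transcript probe sets were quantile-normalized over 20 arrays; the probe set with the highest mean stood for each gene. limma 3.58.1 in R 4.3.3 (lmFit, eBayes with trend, 4 group means, 16 residual degrees of freedom) gave two-sided p-values, adjusted by Benjamini-Hochberg over 19505 genes. Precision is limited by the number of arrays. The members and lists were chosen with earlier results of these data known. Named besides the 10 members: per list and pairwise comparison the 2 genes of smallest p, plus Nfe2l2, Keap1 and Bach1, and the 3 genes most correlated with each member. Alternatives were the deposited values, median centring, array brightness or Y-linked level as a covariate, array weights, brighter genes, mean probe sets and each array left out. Numbering does not pair the arrays.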

Additional observations from a re-analysis of the deposited data

Results flagged for a closer look

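In 9 of 40 groups of a member, 1 array stood far from the rest (Dixon's 95% criterion, which chance meets in about 1 of 20 groups). The genes were read on the same arrays, so the 40 groups are not independent and their count cannot be judged against that rate. In the Marfan sildenafil group array 9 stood apart for Hmox1 at 10.49, Sod2 at 10.09 and Gpx3 at 11.53 log2 units. In the Marfan vehicle group array 20 stood apart for Gclm at 7.85. In the wild-type vehicle group array 18 stood apart for Sod3 at 9.96. In the wild-type sildenafil group array 4 stood apart for Sod2 at 9.34 and Gclm at 8.93, and array 5 for Cat at 12.19 and Gclc at 10.02.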

How the results depend on the processing

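No paired analysis was possible because the array numbers run on over the groups and share no number. Of 3850 values of members and named genes under the alternatives, 2 newly passed the threshold and 165 changed sign, 44 of them with brightness as a covariate, 45 with deposited or centred values and 50 with an array left out. In 3 of the 165 both differences exceeded their own SE. These were Sod3 and Txnip. With array brightness as a covariate Sod3, Marfan minus wild-type on vehicle, was -0.25, and -0.22 also without array 9 (a setting chosen after seeing the data, as was the use of arrays with high Y-linked levels alone); Txnip in that comparison was -0.12 with median centring, which moved the median of all genes there to -0.13. The count of members passing for sildenafil averaged over genotypes, 0, was 1 (Sod3) with array weights and ran from 0 to 1 when each array was left out, 1 only without array 9. Array 9 also had the lowest weight. Deposited values moved the median of all genes to 0.25 (Marfan on vehicle) and 0.28 (sildenafil in wild-type mice), and median centring to -0.13 in both; the median of the members moved with it, to 0.21 and 0.30 with deposited values and to -0.17 and -0.11 with centring. For the difference between the sildenafil effects it was -0.22 with deposited values, 0.16 with centring, 0.012 with brightness and 0.010 with brightness and without array 9. With deposited values it was 0.070 for genotype averaged over treatments and 0.16 for sildenafil averaged over genotypes. On arrays with high Y-linked levels it was -0.076 for sildenafil in wild-type mice. With each array left out in turn the median for sildenafil in Marfan mice ran from -0.066 to 0.064, the lowest without array 20.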
